A study of Mus musculus with 2 samples.

Results

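The genes described here are 46 genes of autophagy and the lysosome, named one by one: 26 of the autophagy machinery and its cargo receptors, 5 of the TFEB transcription factor family and its regulators, and 15 of the lysosomal membrane, its enzymes and its proton pump. All 46 were found among the 25740 genes of the deposited tables, counted by symbol, and 45 of them reached 1 RPKM in at least 1 library. RPKM divides the reads of a gene by its exon length and the library's depth, so levels can be compared between genes per length. Messenger RNA was measured in the mouse embryonic stem cell line E14.1, with 1 library from cells carrying wild-type AHCY (WT) and 1 from cells carrying the T136A form. AHCY breaks down S-adenosylhomocysteine, the by-product of methylation reactions, and in T136A a threonine is replaced by alanine. The labels do not say how the T136A cells were made, whether they are 1 clone, or what treatment or culture conditions either group had. With 1 library per genotype there is no spread between replicates and no test. "Higher" and "lower" below compare these libraries only, and each printed interval covers counting error alone.

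Autophagy delivers cytoplasm to the lysosome inside a double membrane, the autophagosome. A kinase complex and a lipid kinase complex start that membrane, a conjugation system couples small LC3 and GABARAP proteins to it, and receptors tether cargo to those proteins. Lysosomes then degrade the content with enzymes that work in the acid made by a proton pump. TFEB, TFE3 and MITF, which are held in the cytoplasm when nutrients are plentiful, switch on lysosomal and autophagy genes through short DNA sites built around the letters CACGTG.

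Those letters were searched in the RefSeq promoter windows of GRCm38.p6, each of which runs from 250 bases before to 50 bases after a transcription start. Windows were found for 39 of the 46 genes. CACGTG reads the same on both strands. It was present for 8 of 14 lysosomal genes (57.1%), for 3 of 20 autophagy genes (15.0%) and for 8.09% of all 27025 genes with a window. Those 27025 were taken at any RNA level, whereas 45 of the 46 genes reached 1 RPKM. Of 68 other lysosomal genes with a window, counted at any RNA level, 15 held CACGTG (22.1%). Other lysosomal genes at or above 1 RPKM are described further below. The lysosomal genes among the 46 with a match were Atp6v0d1, Atp6v1a, Ctsa, Ctsd, Ctsl, Gla, Lamp1 and Mcoln1. Atg3, Atg5, Atg7 and Fnip1 held it too. Of the 12 genes with a match, only Atg3 was above its WT level, at 6.59 RPKM (WT) and 7.36 RPKM (T136A). The counting interval of its plain ratio, 0.968 to 1.29, included 1. The others were below WT, as were 52.6% of all genes at or above 1 RPKM. Hexa, the gene with the lowest ratio of the 46, was not among the genes with a match. The relation of the motif to the levels was not tested. The longer palindromic form of the TFEB site, which contains CACGTG, was in 0 of the 39 genes and in 0.370% of all. TGATGCAA, a site shared by ATF4 and CHOP and searched on either strand, was in 0 of the 39 and in 1.03% of all. Both of these sites are so rare over all genes that 0 among 39 does not set these genes apart. Only the exact letters were searched. A match is a run of letters and not a measured binding site.

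The stretches printed here show the motif in capitals. They were chosen from promoters of genes lower in T136A, where they lie outside every annotated exon. Of the genes shown, Lamp1 and Atp6v1a were within 1.5-fold of WT. Lamp1, with 4 matches, is from chr8:13159075-13159160 on the plus strand. Atp6v1a is from chr16:44139360-44139415 on the minus strand, and Fnip1 from chr11:54438079-54438134 on the plus strand.
Lamp1: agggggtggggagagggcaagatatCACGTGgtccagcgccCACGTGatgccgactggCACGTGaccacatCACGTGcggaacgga
Atp6v1a: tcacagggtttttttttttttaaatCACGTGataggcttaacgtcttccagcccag
Fnip1: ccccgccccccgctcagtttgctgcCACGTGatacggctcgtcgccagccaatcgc

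As a group, lysosomal transcripts had lower values with T136A, while those of the autophagy machinery lay on both sides of their WT level. Of the 15 lysosomal genes 14 were below WT and 1 above it; of the 12320 genes at or above 1 RPKM, 52.6% were below and 47.4% above. Their median log2 ratio of T136A over WT was -0.53 (each value with 1 RPKM added), that of the 25 autophagy genes was -0.01 and that of all genes -0.03. At least 1.5-fold lower on this scale were 6 of the 15 lysosomal genes, 3 of the 25 autophagy genes and 11.3% of all genes. At least 1.5-fold higher were 0 of the 15, 3 of the 25 and 10.4% of all genes. In all, 11 of the 45 genes were at least 1.5-fold lower and 3 at least 1.5-fold higher, and with 5 RPKM added instead of 1 the counts were 4 and 1, against 4.20% lower and 4.25% higher over all genes. Hexa alone among the 45 genes was at least 2-fold lower, against 3.10% of all genes, and 0 were at least 2-fold higher, against 3.13%. In bulk RNA, fewer cells with a transcript and less of it per cell cannot be told apart.

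**Figure D1:**
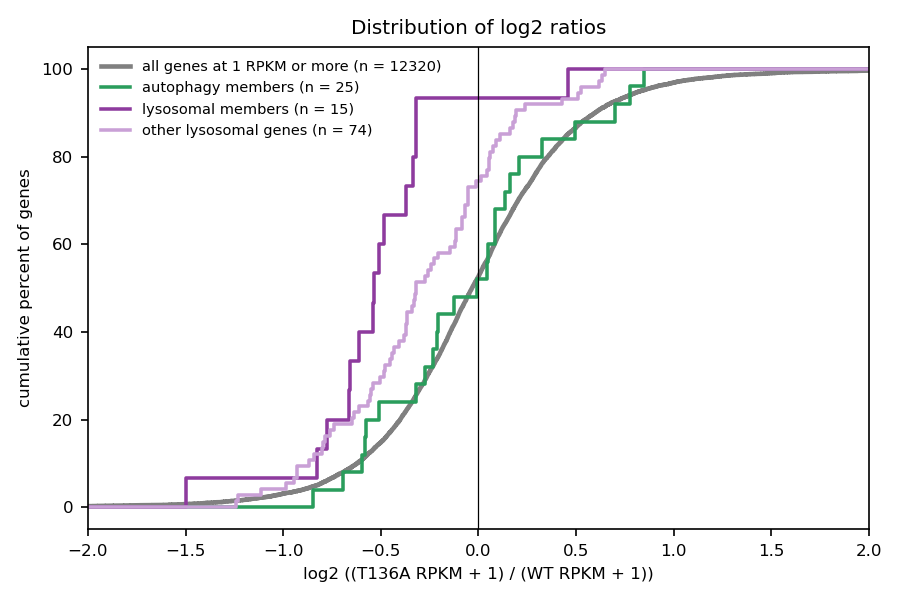
Cumulative percent of genes (vertical axis) against the log2 ratio of T136A over WT with 1 RPKM added (horizontal axis), for all 12320 genes at or above 1 RPKM, 25 autophagy genes, 15 lysosomal genes and 74 other lysosomal genes. The line of the autophagy genes runs along that of all genes, and the lines of both lysosomal groups lie to its left.

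The libraries had implied totals of 17506153 reads (WT) and 18396840 reads (T136A). The embryonic stem cell markers fixed for the check, 8 genes, stood between 94.2 and 2182 RPKM in WT and between 112 and 1969 RPKM in T136A. They did not keep 1 level: Utf1 (94.2 and 284 RPKM), Tdgf1 (161 and 263 RPKM) and Zfp42 (252 and 397 RPKM) exceeded 1.5-fold on the T136A side, and the other 5, among them Nanog (673 and 517 RPKM), were below WT but within 1.5-fold. The part of these differences in the results was not tested. Of 7 macrophage markers found, whose cells are rich in lysosomes, 3 were at 0 in both libraries and only the lysosomal protein gene Cd68 exceeded 1 RPKM. Of 7 primitive endoderm markers, another lysosome-rich type, the summed level was 4.40 RPKM (WT) and 7.93 RPKM (T136A). The 5 fibroblast feeder markers found summed to 4.43 and 7.88 RPKM. Both of these sums were higher in T136A, and their part in the results was not tested. Thy1, at 2.50 RPKM (WT) and 5.32 RPKM (T136A), was the largest part of the fibroblast sum, and Col3a1, Lum and Dcn were not found. Ahcy itself was at 52.9 RPKM (WT) and 56.6 RPKM (T136A). Chromosome 14 genes were higher as a whole (median log2 ratio 0.32 over 453 genes), and 0 of the 46 genes lie there.

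**Figure D2:**
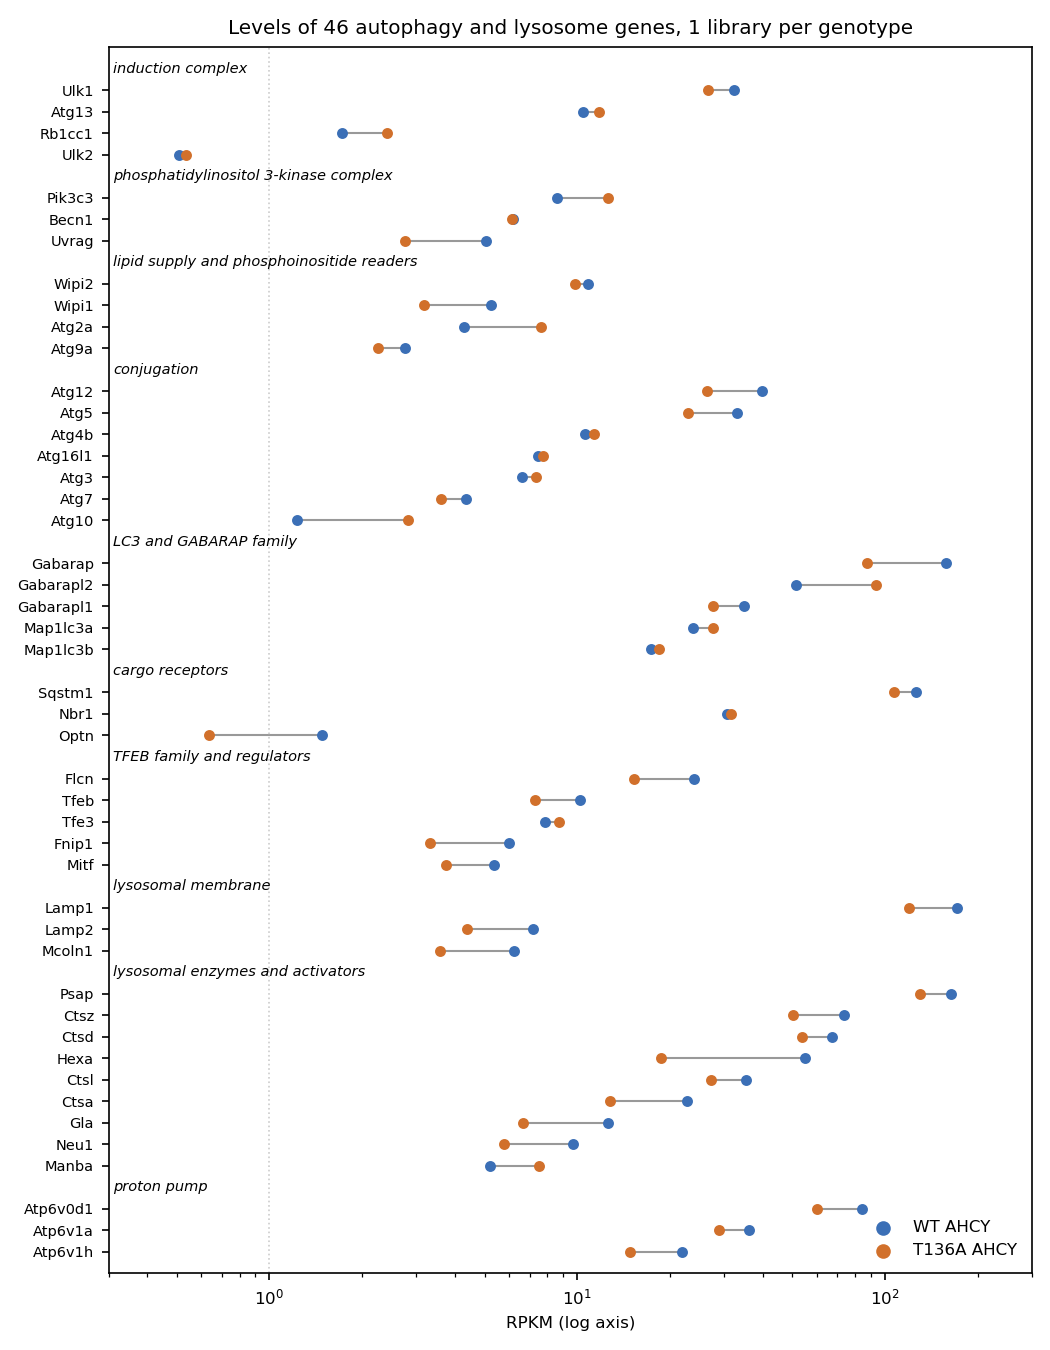
RPKM on a log axis for the 46 genes in WT (blue) and T136A (orange), 1 library each, grouped by role and ordered by the WT level. Lysosomal genes other than Manba have the orange point to the left of the blue one, and both orders occur in the autophagy groups.

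Among genes that start an autophagosome, levels differed little in the kinase complex. Ulk1, its main kinase, stood at 32.3 RPKM (WT) and 26.5 RPKM (T136A). Its relative Ulk2 was at 0.507 and 0.537 RPKM, from 53 and 59 reads. Ulk2 was the only one of the 46 under 1 RPKM in both libraries. The adaptor Atg13 was at 10.4 and 11.8 RPKM. The scaffold Rb1cc1, also called FIP200, was at 1.72 RPKM (WT) and 2.41 RPKM (T136A), a plain ratio of 1.40 (95% counting interval 1.24 to 1.59). None of the 3 kinase complex genes at or above 1 RPKM was 1.5-fold apart on either scale.

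In the lipid kinase complex the partners went in different directions. Pik3c3, the catalytic subunit known as VPS34, was at 8.61 RPKM (WT) and 12.5 RPKM (T136A). Becn1, the scaffold Beclin 1, was nearly equal at 6.19 and 6.16 RPKM, but 43.9% of its exon sequence overlaps Cntd1 on the other strand, so reads of the pair cannot be told apart if strand was not used. Uvrag, which joins the complex in its endosomal form, stood at 5.06 RPKM (WT) and 2.75 RPKM (T136A). It was 1.84-fold lower in plain RPKM (1.64 to 2.07). The antisense transcript Gm45187 overlaps 17.6% of the Uvrag exon sequence. Several other transcripts match parts of Uvrag, among them Mettl6 over 345 bases at 95.1% identity.

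The lipid transfer protein gene Atg2a was at 4.30 RPKM (WT) and 7.60 RPKM (T136A), 1.77-fold higher (1.60 to 1.96). ATG2A works with the WIPI proteins, which bind the lipid made by VPS34 and recruit the conjugation machinery. Wipi1 stood at 5.23 and 3.18 RPKM and Wipi2 at 10.8 and 9.83 RPKM. Wipi1 was within 1.5-fold with 1 RPKM added (log2 ratio -0.58) and outside it in plain RPKM (1.65-fold lower). Atg9a, which encodes the membrane protein of the seed vesicles, was at 2.76 and 2.25 RPKM, and 31.8% of its exon sequence is shared with the transcript Gm29253.

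The conjugation genes had a median log2 ratio of 0.05 over 7 genes. ATG7 activates both ATG12 and the LC3 proteins, and its gene stood at 4.34 RPKM (WT) and 3.61 RPKM (T136A). Atg10, the enzyme that passes ATG12 to ATG5, was at 1.23 and 2.82 RPKM, from 37 and 89 reads. Its ratio of 2.29 in plain RPKM had a wide interval (1.54 to 3.46). The genes of both partners had lower values in T136A, with Atg12 at 39.8 RPKM (WT) and 26.3 RPKM (T136A) and Atg5 at 33.1 and 22.9 RPKM. Atg12, with a log2 ratio of -0.58, and Atg5, with -0.51, were both just inside 1.5-fold with 1 RPKM added; in plain RPKM Atg12 was 1.51-fold lower. The other 3 were close to equal: Atg3, which transfers LC3, at 6.59 and 7.36 RPKM, the LC3 protease gene Atg4b at 10.6 and 11.3 RPKM, and Atg16l1, which places the ATG12 and ATG5 pair on the membrane, at 7.44 and 7.73 RPKM.

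The LC3 and GABARAP family encodes the proteins that coat the autophagosome, and its members with the highest RPKM went opposite ways. The ranking depends on exon length, 7517 bases for Map1lc3b and 2325 for Gabarapl2. In WT reads, Map1lc3b (2288) exceeded Gabarapl2 (2092). Gabarap (chr11:69991143-69994951, plus strand, GRCm38) was at 157 RPKM (WT) and 87.0 RPKM (T136A), 1.81-fold lower (1.73 to 1.89). Gabarapl2, also called GATE-16 (chr8:111940703-111953612, plus strand, GRCm38), was at 51.4 and 93.2 RPKM, 1.81-fold higher (1.72 to 1.91). Gabarap made up 55.3% of the family's summed RPKM in WT and 34.3% in T136A, and Gabarapl2 18.1% and 36.7%. The sum itself was 284 RPKM (WT) and 254 RPKM (T136A), so the order of the top pair was exchanged while the total differed less.

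The remaining members of that family differed less. Gabarapl1 stood at 34.7 RPKM (WT) and 27.6 RPKM (T136A), Map1lc3a at 23.7 and 27.6 RPKM, and Map1lc3b, the usual marker protein of autophagosomes, at 17.4 and 18.5 RPKM. Some of these levels are uncertain because of gene copies. Of the Gabarapl2 transcript 349 bases match the copy Gm3724 at 99.4% identity; that copy was at 4.75 and 4.67 RPKM. Of Map1lc3b 282 bases match Gm6055 at 99.6%. Gm6055 was at 41.4 RPKM (WT) and 48.9 RPKM (T136A), above Map1lc3b itself in RPKM, which depends on exon length. How reads that match both were assigned is not given in the sources used here. For Gabarap, 0 other transcripts shared 200 bases at 95% identity.

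**Figure D3:**
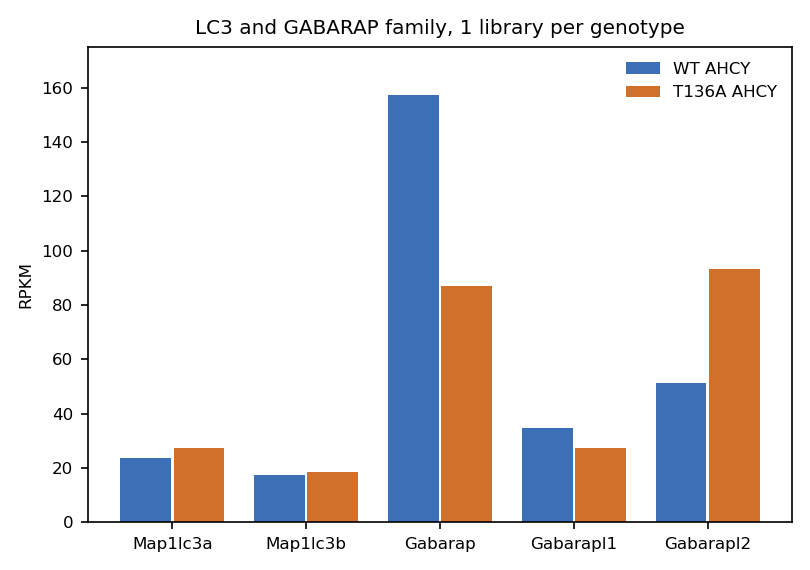
Bars give the RPKM of the 5 LC3 and GABARAP genes in the WT (blue) and T136A (orange) library, 1 library each, so there are no error bars. Gabarap is the highest bar in WT at 157 RPKM, and Gabarapl2 the highest in T136A at 93.2 RPKM.

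Cargo receptors were led by Sqstm1, which encodes p62, the adaptor for ubiquitin-tagged cargo and itself degraded by autophagy. It stood at 126 RPKM (WT) and 107 RPKM (T136A), a plain ratio of 0.851 (0.823 to 0.880). Mrnip, which overlaps 17.3% of the Sqstm1 exon sequence on the other strand, was at 13.5 and 6.32 RPKM. Nbr1, a related receptor, was nearly equal at 30.7 and 31.7 RPKM. Optn, a receptor for bacteria and mitochondria, was weakly expressed at 1.48 and 0.637 RPKM, from 97 and 44 reads, and 2.32-fold lower in plain RPKM (1.61 to 3.39).

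A set of 12 of these genes is known to respond to the stress factor ATF4 or to CHOP, not each to both: Sqstm1, Nbr1, Atg3, Atg5, Atg7, Atg10, Atg12, Atg16l1, Becn1, Gabarap, Gabarapl2 and Map1lc3b. Atf4 was at 306 RPKM (WT) and 105 RPKM (T136A), and Ddit3, the gene of CHOP, at 30.3 and 7.39 RPKM. The 12 genes had a median log2 ratio of 0.02, with 6 above and 6 below 0. Of them Gabarap was at least 1.5-fold lower (8.33% of the 12, against 11.3% of all genes). Gabarapl2 and Atg10 were at least 1.5-fold higher (16.7%, against 10.4% of all genes). The other 33 genes at or above 1 RPKM had a median of -0.42, but they include all 15 lysosomal genes (median -0.53). All 12 are autophagy genes, and the 25 autophagy genes at or above 1 RPKM had a median of -0.01.

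The TFEB family and its regulators were mostly lower in T136A. Tfeb was at 10.2 RPKM (WT) and 7.29 RPKM (T136A) and Mitf at 5.36 and 3.75 RPKM, whereas Tfe3 was at 7.86 and 8.75 RPKM. All 3 encode factors that drive lysosomal genes, and none was 1.5-fold apart. Flcn (folliculin) and Fnip1, whose proteins form the complex that lets nutrient signals keep TFEB in the cytoplasm, were lower. Flcn stood at 23.9 and 15.2 RPKM, 1.57-fold lower (1.46 to 1.69). Fnip1 stood at 5.98 and 3.32 RPKM, a plain ratio of 0.556 (0.493 to 0.626). On the scale with 1 RPKM added, Flcn lay inside 1.5-fold under 3 of the 4 other scalings of the libraries, as did Optn.

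All 3 genes of the lysosomal membrane were lower. Lamp1, a main glycoprotein of that membrane, was the most highly expressed of the 46 genes in WT, at 171 RPKM. It stood at 120 RPKM in T136A, a plain ratio of 0.700 (0.677 to 0.724). Grtp1, which overlaps 9.31% of the Lamp1 exon sequence on the other strand, was at 22.6 RPKM (WT) and 16.9 RPKM (T136A). In all, 15 of the 46 genes share exon sequence with another annotated gene. Lamp2, needed for fusion and for chaperone-mediated autophagy, was at 7.20 and 4.38 RPKM, 1.65-fold lower (1.502 to 1.803). The calcium channel gene Mcoln1, whose activity leads to TFEB activation, was at 6.22 and 3.57 RPKM, 1.74-fold lower (1.56 to 1.95). Lamp1 was inside 1.5-fold and the other two outside it, but Lamp2 lay inside under all 4 other scalings.

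Of the 9 enzymes and activators, 8 were lower and 4 at least 1.5-fold lower with 1 RPKM added. Over all genes the shares were 52.6% and 11.3%. Hexa (ENSMUSG00000025232; chr9:59539540-59565109, plus strand, GRCm38), the alpha subunit of the enzyme that removes a sugar from the lipid GM2, was at 54.8 RPKM (WT) and 18.7 RPKM (T136A). It was 2.92-fold lower (2.68 to 3.19), and 0.698% of the 12320 genes had a lower log2 ratio than its -1.50. Tmem202 overlaps 12.8% of its exon sequence on the other strand and was at 0.0335 and 0.0319 RPKM. Gm2a, the activator that presents GM2 to the enzyme, was at 9.26 and 9.64 RPKM.

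Ctsa and Neu1, whose products form a complex in which cathepsin A protects the sialidase, were both lower. Ctsa was at 22.6 RPKM (WT) and 12.8 RPKM (T136A), 1.77-fold lower (1.64 to 1.91). Pltp, which overlaps 10.5% of the Ctsa exon sequence on the other strand, was lower too, at 30.5 and 14.3 RPKM, and its part in the Ctsa value was not tested. Neu1 was at 9.72 and 5.78 RPKM, 1.68-fold lower (1.48 to 1.91). Glb1, the galactosidase of the same complex, was at 27.9 and 24.0 RPKM. Gla, the alpha-galactosidase, stood at 12.6 RPKM (WT) and 6.68 RPKM (T136A), 1.89-fold lower (1.67 to 2.14).

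The proteases Ctsd, Ctsl and Ctsz and the saposin precursor were lower by less. Psap, from which the saposin activators are cut, was at 164 and 130 RPKM and was the highest of the 46 genes in T136A. The aspartic protease gene Ctsd was at 67.2 and 53.6 RPKM, with 34.4% of its exon sequence shared with Gm49369. Ctsz was at 73.3 and 50.1 RPKM. Ctsl was at 35.4 and 27.1 RPKM, and the antisense transcript Gm47123 overlaps 26.8% of its exon sequence. These 4 lay between log2 ratios of -0.54 and -0.32. Manba, the beta-mannosidase, was the only enzyme above its WT level, at 5.20 RPKM (WT) and 7.53 RPKM (T136A), a plain ratio of 1.45 (1.31 to 1.60).

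**Figure D4:**
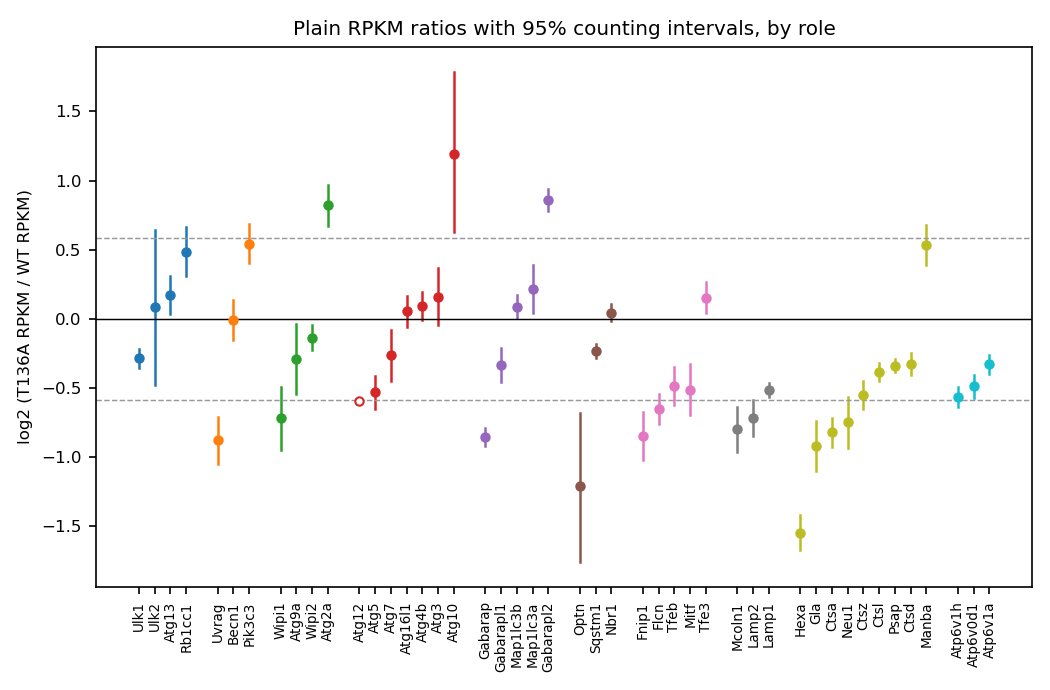
The log2 of the plain RPKM ratio of T136A over WT for each gene, grouped and coloured by role, with vertical lines for the 95% counting interval; the open point of Atg12 has none because its values gave no whole read number. Dashed lines mark 1.5-fold, and Hexa is the lowest point, at 2.92-fold lower.

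The proton pump genes were lower by similar amounts. Atp6v1a, the catalytic subunit, was at 36.2 RPKM (WT) and 28.8 RPKM (T136A). Atp6v1h, a regulatory subunit, was at 21.9 and 14.8 RPKM, and Atp6v0d1, part of the central stalk, at 84.04 and 59.94 RPKM. None of the 3 was 1.5-fold apart, and their median log2 ratio was -0.48. Among 13 other pump genes at or above 1 RPKM, 10 were below 0, with a median of -0.36. At least 1.5-fold lower were 3 (23.1%, against 11.3% of all genes) and at least 1.5-fold higher 1 (7.69%, against 10.4%). The 3 lower ones were the accessory subunit gene Atp6ap1 (38.5 and 17.3 RPKM), Atp6v0b (44.6 and 22.9 RPKM) and Atp6v0a1 (12.6 and 6.87 RPKM). Atp6v0e2 was higher, at 5.81 and 9.54 RPKM.

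**Figure D5:**
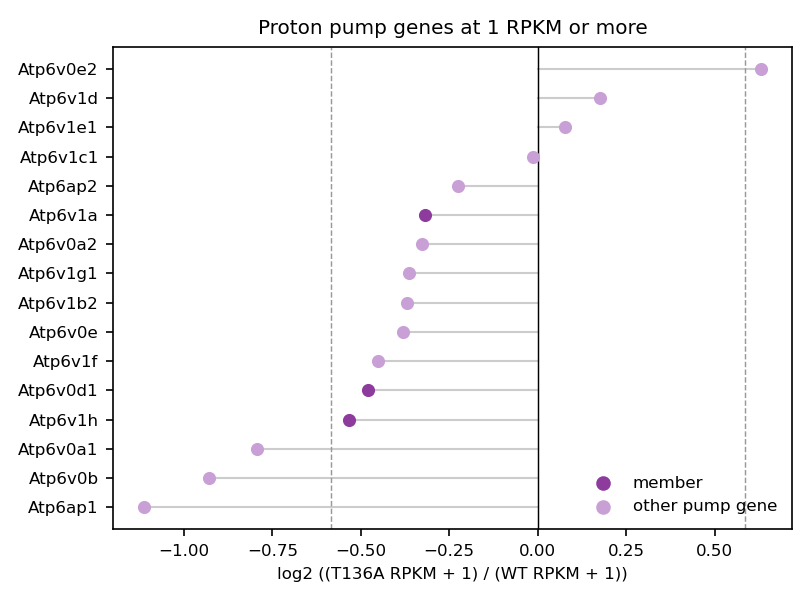
The log2 ratio of T136A over WT with 1 RPKM added for the 16 proton pump genes at or above 1 RPKM, the 3 described first in dark purple and 13 others in light purple; dashed lines mark 1.5-fold. Points run from Atp6ap1 at -1.11 to Atp6v0e2 at 0.63, and 13 of the 16 lie below 0.

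Outside the 46 genes, other lysosomal genes also had more lower than higher values. The lists of other genes, like the 46, were chosen with earlier results of these data known. Counts here are on the scale with 1 RPKM added. Of 74 other lysosomal genes at or above 1 RPKM, the pump included, 55 were below 0, 17 at least 1.5-fold lower and 3 at least 1.5-fold higher, with a median log2 ratio of -0.32. The share at least 1.5-fold lower was 23.0%, and 11.3% over all genes. For enzymes and sorting the counts were 11 lower and 2 higher of 45. The lowest were the peptidase gene Tpp1 (21.9 RPKM (WT) and 8.69 RPKM (T136A)), Naglu, which degrades heparan sulfate (9.52 and 3.48 RPKM), and the sorting receptor gene Sort1 (9.23 and 4.17 RPKM). The protease gene Ctsh (0.470 and 1.30 RPKM) and the phosphatase gene Acp5 (1.32 and 2.57 RPKM) were higher, both at low levels. Among 16 membrane genes 3 were at least 1.5-fold lower, namely Laptm4b (82.6 and 45.6 RPKM), the chloride transporter gene Clcn7 (6.36 and 3.70 RPKM) and Cd63 (28.3 and 17.9 RPKM), and 0 were higher.

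Other genes of autophagy and of nutrient sensing at the lysosome numbered 58 at or above 1 RPKM. With 1 RPKM added, 2 were at least 1.5-fold lower (3.45%, against 11.3% of all genes). At least 1.5-fold higher were 4 (6.90%, against 10.4% of all genes). Both shares were below those over all genes. The median log2 ratio was -0.04 for 17 core autophagy genes, -0.06 for 16 selective receptors, -0.06 for 14 fusion genes and -0.23 for 11 nutrient-sensing genes, of which 7 were below 0. Atg101, a partner of ATG13, was at 54.4 and 96.2 RPKM, and Atg14, which directs the lipid kinase to autophagosomes, at 14.4 and 25.8 RPKM. Among 16 selective receptors, Calcoco2, also called NDP52, was at 34.6 RPKM (WT) and 77.7 RPKM (T136A), 2.25-fold higher (2.08 to 2.42). Bnip3l, a receptor for mitochondria, was at 26.6 and 53.6 RPKM. Atg14 and Bnip3l lie on chromosome 14, whose genes were higher as a whole. The lower pair was the receptor of the endoplasmic reticulum Retreg1 (5.70 and 3.07 RPKM) and the nutrient-sensing GTPase gene Rragd (4.47 and 2.16 RPKM). None of the 14 fusion genes was 1.5-fold apart with 1 RPKM added; in plain RPKM Epg5, at 2.06 and 1.25 RPKM, was 1.65-fold lower.

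Reads could be recovered in both libraries for 44 of the 45 genes at or above 1 RPKM. The counting interval of the plain ratio lay wholly below 1 for 29 of them and wholly above 1 for 10, where the shares over all 10770 such genes were 36.9% and 31.7%. It lay wholly beyond 1.5-fold lower for 9 and wholly beyond 1.5-fold higher for 3, against 8.70% and 7.62% of all genes. The 9 included 5 of the 15 lysosomal genes and 3 of 24 autophagy genes. Such intervals are narrow for abundant transcripts, so those of Lamp1 or Psap exclude 1 at small differences, and they hold no variation between cultures.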

How the data were processed

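The authors deposited RPKM values, read counts divided by exon length and library total, for 25749 Ensembl genes in each library; the unit is named by no label and was settled from the values. Times the union exon length in GENCODE M21 (GRCm38), 89.9% of positive values in WT and 90.0% in T136A were whole multiples of 1 constant per library (tolerance 0.01), and the constants give the implied read totals. Per the submitters' processing notes, CASAVA 1.8 and mm9 were used; aligner and counting rule: not given in the sources used here. Symbols matched 25696 identifiers; of identifiers sharing a symbol the one with the higher total was kept. Log2 ratios are of RPKM + 1, for 12320 genes with at least 1 RPKM in 1 library. Printed folds are plain RPKM ratios with exact conditional binomial (Clopper-Pearson) 95% intervals from recovered reads (scipy 1.17.1), tested on simulated data. Every one of the 46 genes is given; of the other lists up to 3 genes at each end outside 1.5-fold are named, and Gm2a, Glb1 and the overlapping or copied genes were added after their values were seen. Members and lists were chosen with earlier results of these data known. Alternatives changed the added constant, the minimum level, the scaling, chromosome 14 and shared symbols.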

Additional observations from a re-analysis of the deposited data

How the results depend on the processing

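No paired analysis was possible because each genotype has 1 library. The median log2 ratio of the 46 genes stayed between -0.35 and -0.27 over the 12 settings run, and no called gene changed direction. Counts are of genes at least 1.5-fold apart unless 2-fold is named; the other lists are genes outside the 46. With 0.1 added to RPKM, 1 of the 45 genes was 2-fold higher and 2 were 2-fold lower; 5 autophagy genes, 1 conjugation gene and 1 gene of lipid supply were lower, and in the other lists 1 autophagy core, 1 fusion, 2 nutrient-sensing and 6 membrane genes were lower and 1 membrane gene higher. With 5 added, 1 of the 45 was higher and 4 were lower (1 and 1 of the autophagy genes, 3 lysosomal genes lower); the lower counts of the lipid kinase complex, cargo receptors, TFEB group and lysosomal membrane, and the higher counts of lipid supply and conjugation, were 0, and the medians of the TFEB group (-0.31) and lysosomal membrane (-0.39) moved. In the other lists, 5 added left 4 higher and 7 lower in all, 4 enzymes and 1 membrane gene lower, 0 receptors and 0 nutrient-sensing genes lower and 0 enzymes and 0 pump genes higher, with medians of -0.10 for nutrient sensing and -0.15 for membrane. Over all genes, 0.1 added gave 723 genes 2-fold higher and 727 lower; 5 added gave 101 and 114 at 2-fold and 523 and 518 at 1.5-fold. A minimum of 5 RPKM gave 780 higher and 903 lower over all genes (209 2-fold higher), and medians of -0.057 for the kinase complex, -0.093 for cargo receptors, 0.089 for the other autophagy core, -0.11 for nutrient sensing and -0.54 for other membrane genes; it left 0 conjugation genes higher, 0 receptors and 0 nutrient-sensing genes lower, and 0 other enzymes higher and 6 lower. With no minimum the medians were -0.13 for nutrient sensing, -0.16 for other membrane genes and -0.22 for other pump genes; with a mean of at least 1 RPKM, 1 other enzyme was higher. Median centring, trimmed-mean and upper-quartile scaling left 0 cargo receptors lower. These 3 and quantile scaling left 1 lysosomal membrane gene lower, trimmed-mean, upper-quartile and quantile scaling left 1 TFEB group gene lower, and upper-quartile and quantile scaling put 1 nutrient-sensing gene higher. Without chromosome 14, 1 gene each of the other autophagy core and receptors was higher. The causes were not tested, beyond the smaller numbers of genes that a higher minimum or a removed chromosome leaves. Depth limits Optn, Atg10 and Ulk2, whose values rest on under 100 reads in each library.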
